A study of Mus musculus with 32 samples.

Results

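Wild-type mouse chondrocytes that had received no virus were compared with and without IL-1β plus FX11, an arm of the study in which the cytokine and an inhibitor of lactate dehydrogenase A (LDHA) were given together. The members were the libraries labelled wild type with the treatment IL-1b + FX11 (2 libraries) or Untreated (2 libraries), which are 4 of the 32 libraries of the series. All were primary chondrocytes of the C57BL/6 strain, dissociated from cartilage of newborn pups (P1-P3) without regard to sex and kept unpassaged at normoxia. The treated cultures received 10 ng/mL IL-1β and 40 µM FX11 for 24 h, and the untreated cultures received neither. Neither group carried a floxed allele or adenovirus. The title styles divide the libraries into set 1 and set 2, and each set holds 1 untreated library and 1 library with both agents. Nothing in the labels says that the 2 libraries of a group came from separate litters or cultures, so p-values measure the spread between these libraries only. What a set stands for (a day, a litter or a run) is not given in the sources used here.

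IL-1β is a cytokine that binds its receptor on the chondrocyte and activates the IκB kinases, which release NF-κB to the nucleus, and mitogen-activated kinases, which act on AP-1. In cartilage this pathway is known for raising matrix-cleaving proteases, chemokines and nitric oxide synthase while the genes for collagen and aggrecan are turned down. LDHA converts pyruvate to lactate and regenerates NAD from NADH, and FX11 is a small molecule that inhibits it. IκB-ζ, encoded by Nfkbiz, is an atypical member of the IκB family that binds NF-κB in the nucleus and is needed for a subset of its targets.

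The 4 libraries held between 23489683 and 39092817 counts and between 21721 and 23213 genes with at least 1 count. The RNA gene Gm26917 took 6.61% to 7.83% of the counts and mitochondrial genes took 1.68% to 2.07%. All 10 chondrocyte markers (Col2a1, Acan, Col9a1, Col11a1, Matn1, Matn3, Hapln1, Comp, Sox9 and Cnmd) had counts in all 4 libraries, and their summed level was 91893 and 95215 CPM (read counts scaled to library size with TMM factors) in the untreated libraries and 18653 and 28477 CPM with both agents. Here and below, 2 values joined by "and" are those of set 1 and set 2. Fibroblast and perichondrium markers were next, at 8689 and 10348 CPM in untreated libraries and 4509 and 4687 CPM with both agents. The summed markers of leukocytes were between 97.3 and 222 CPM, those of osteoblasts between 23.3 and 109 CPM, those of muscle between 32.7 and 273 CPM, those of adipocytes between 18.5 and 313 CPM, those of erythroid cells between 2.52 and 36.9 CPM, those of endothelium between 5.26 and 11.0 CPM and those of keratinocytes between 0.513 and 1.72 CPM. Muscle and erythroid markers were higher in set 1 and adipocyte markers higher in set 2, with and without the agents. At 0 counts were 1 muscle marker in the untreated library of set 2, 1 adipocyte marker in the set 2 library with both agents, and 2 keratinocyte markers in each library of set 2. The 2 set 2 libraries whose labels look interchanged, labelled IL-1β alone and FX11 alone, belong to neither group.

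The response was measured with edgeR's quasi-likelihood test with the library set as a block, with calls made where the p-value, adjusted by Benjamini-Hochberg over all genes tested, was 0.05 or less. Of 15095 genes tested, 571 were called (3.78%), 333 higher with both agents (2.21%) and 238 lower (1.58%). The size of the change was at least 1 on the log2 scale for 311 of the higher and 221 of the lower genes, and 34 higher genes had a log2 fold change of at least 5. The change had the same sign in both sets for 570 of the 571 called genes. With 1 pair of libraries per set the test favours genes whose 2 ratios agree, so this agreement is no separate support. The values of the 2 groups did not overlap for 528 of the 571, against 35.1% of all genes tested. The count rests on the block, which leaves 1 residual degree of freedom, since without it 1 gene was called (1393 at an unadjusted p under 0.05). On simulated data the test with the block made more false calls than its nominal rate, so the adjusted p-values are likely too small. When all 8 wild-type libraries shared the spread, among them those whose labels look interchanged, edgeR called 0 genes (1571 at an unadjusted p under 0.05). In a fit chosen after seeing the data the 12 libraries given GFP virus shared it. There 2344 genes were called, 547 of the 571 among them. Those 12 libraries lay close together within a line and treatment, as given below, so their spread is not that of the virus-free libraries.

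**Figure D1:**
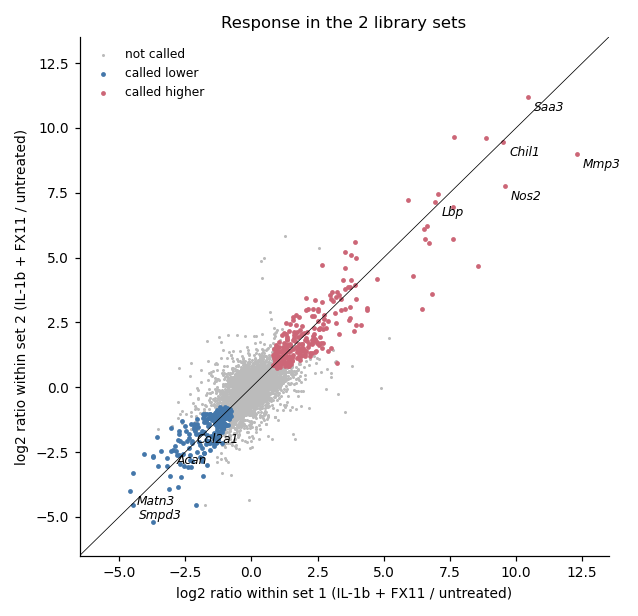
Each point is 1 of the 9147 genes with a mean above 10 CPM, placed by its log2 ratio of IL-1β plus FX11 to untreated within set 1 (horizontal axis) and within set 2 (vertical axis), with an offset of 0.5 CPM, and the line marks equal ratios. Called genes lie along the line in both directions, which calling with the set as a block favours. Chil1 and Saa3 lie close to the line, while Mmp3 lies below it with 12.30 in set 1 and 8.98 in set 2.

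The sets differed in level as well as in response. Among the 9147 genes above 10 CPM, 622 differed by more than 1 on the log2 scale between the 2 untreated libraries and 756 between the 2 libraries with both agents. The log2 ratio of treated to untreated exceeded 1 in size for 768 genes in set 1 and 773 in set 2, with 413 in the same direction in both sets and 8 in opposite directions. Among the 571 called genes the median gap between the log2 ratios of the 2 sets was 0.40, a gap that calling with the block keeps small.

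The 8 higher genes with the smallest p-values were Nos2, Cxcl3, Cxcl5, Lbp, Slpi, Chil1, Il12b and Ccl2, all of which encode secreted or inflammatory proteins. Chil1 (ENSMUSG00000064246, GRCm38 chromosome 1, 134182176 to 134190181) encodes chitinase-3-like protein 1, a secreted glycoprotein known from inflamed cartilage. It was at 8.10 and 8.47 CPM in the untreated libraries and at 6290 and 6265 CPM with both agents. The groups were far apart and the 2 sets nearly equal, and the log2 fold change was 9.57 (SE 0.40, adjusted p = 0.0024 from edgeR). Nos2 (ENSMUSG00000020826, chromosome 11, 78920787 to 78960254), the inducible nitric oxide synthase, went from 0.257 and 0.0703 CPM to 581 and 123 CPM. The untreated libraries held 9 and 2 reads of Nos2, so its fitted log2 fold change of 11.03 (SE 0.28, edgeR adjusted p = 0.00119) leans on very few reads. In set 2 the ratio was 1782-fold with a 95% counting interval of 493 to 14725.

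Lbp (ENSMUSG00000016024, chromosome 2, 158306493 to 158332852), which encodes the lipopolysaccharide-binding protein of the acute phase, rose from 4.88 and 10.8 CPM to 662 and 1583 CPM. Slpi (ENSMUSG00000017002, chromosome 2, 164354070 to 164389095), an inhibitor of leukocyte proteases, rose from 18.0 and 5.23 CPM to 1843 and 431 CPM. Neither gene's groups overlapped, but set 1 was the lower set for Lbp and the higher set for Slpi. The log2 fold changes were 7.14 (SE 0.26) and 6.53 (SE 0.26), with adjusted p = 0.0018 and 0.00223 from edgeR.

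**Figure D2:**
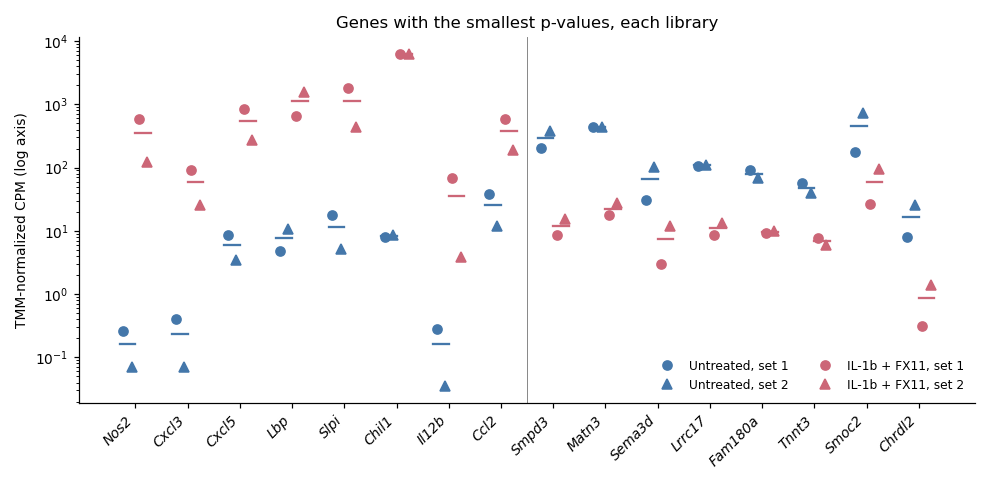
Normalized CPM on a log axis of the 8 higher genes (left) and 8 lower genes (right) with the smallest p-values, in untreated libraries (blue) and with IL-1β plus FX11 (red), where circles are set 1, triangles are set 2 and bars are means of 2 libraries. No gene's groups overlap; Chil1 stands at 8.10 and 8.47 against 6290 and 6265 CPM, and Matn3 at 441 and 444 against 17.9 and 27.1 CPM.

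Chemokines, which attract leukocytes, were higher as a group. Of 17 tested (6 more lay under the filter of 1 CPM), 10 rose and none fell, with a median log2 fold change of 2.81 against 0.00 over all genes tested. For this and the lists and markers below, the shares over all genes tested were 2.21% called higher and 1.58% called lower. Cxcl5 (ENSMUSG00000029371, chromosome 5, 90759299 to 90761625), a neutrophil attractant, was at 8.53 and 3.44 CPM in untreated libraries, compared with 835 and 274 CPM under both agents. Its log2 fold change was 6.47 (SE 0.23, edgeR adjusted p = 0.0018). Cxcl3, its neighbour on chromosome 5, went from 14 and 2 reads, or 0.400 and 0.0703 CPM, to 92.9 and 26.1 CPM, and in set 2 the ratio was 380-fold (95% counting interval 105 to 3148). Ccl2 (ENSMUSG00000035385, chromosome 11, 82035571 to 82037453), the monocyte attractant MCP-1, was already present untreated, at 38.3 and 12.1 CPM, and reached 580 and 193 CPM. The rise of Ccl2 was the same in both sets, with log2 ratios of 3.90 and 3.94, although its level in set 1 was higher both with and without the agents.

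Among the cytokines and colony-stimulating factors, 5 of 12 tested rose, against 2.21% over all genes tested, and none fell (median log2 fold change 1.11). The filter left out 7 more. Il6 (ENSMUSG00000025746, chromosome 5, 30013161 to 30019968), which encodes interleukin-6, was at 0.114 and 0.0703 CPM untreated, 4 and 2 reads, and at 13.7 and 4.92 CPM with both agents. In set 2 its ratio was 71.6-fold with a 95% counting interval of 19.4 to 598, and the fitted log2 fold change was 6.58 (SE 0.46, edgeR adjusted p = 0.00543). Il12b, the p40 subunit shared by interleukins of the IL-12 family, went from 0.285 and 0.0351 CPM to 68.6 and 3.81 CPM, so that its level with both agents was far higher in set 1. The single read of Il12b in the untreated set 2 library gave a ratio of 111 with a counting interval of 19.4 to 4426. Lif, a cytokine of the interleukin-6 family, rose from 3.34 and 0.597 CPM to 44.6 and 25.7 CPM (log2 fold change 4.41, SE 0.43, edgeR adjusted p = 0.0114). No leukocyte marker was called in either direction by edgeR (0 of 9 tested, against 3.78% over all genes). At an unadjusted p under 0.05 there was 1, with 1 higher by DESeq2 and 0 by voomWithQualityWeights. The median log2 fold change was -0.12, and the summed leukocyte markers were 97.3 and 222 CPM untreated and 152 and 154 CPM with both agents.

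NF-κB subunits and feedback regulators moved in 1 direction, with 13 of 20 tested higher, none lower and a median log2 fold change of 1.90. Nfkbiz (ENSMUSG00000035356, chromosome 16, 55811375 to 55838899) was at 15.5 and 8.89 CPM without the agents and 187 and 129 CPM with both. Both treated libraries lay far above both untreated libraries, and the log2 fold change was 3.72 (SE 0.17, edgeR adjusted p = 0.00282). Zc3h12a, which encodes the ribonuclease regnase-1 that degrades inflammatory transcripts, rose from 5.05 and 4.81 CPM to 150 and 96.7 CPM. Bcl3, another atypical IκB protein, rose from 13.0 and 15.9 CPM to 115 and 166 CPM, and some of its exon bases are also those of Gm16175 on the other strand. The 7 members not called had positive log2 fold changes as well, and the lowest of the 20 was 0.37.

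Acute-phase and antimicrobial proteins had the highest median of the 23 lists, 4.69 on the log2 scale, with 13 of 17 tested higher and none lower. Saa3 (ENSMUSG00000040026, chromosome 7, 46711998 to 46715676), a serum amyloid A made outside the liver, was at 3.22 and 0.667 CPM in untreated libraries, compared with 5171 and 2723 CPM under both agents. Its log2 fold change was 11.20 (SE 0.55, edgeR adjusted p = 0.00292). Steap4, a metalloreductase of endosomes, rose from 4.74 and 21.3 CPM to 496 and 1133 CPM (log2 fold change 6.21, SE 0.35, edgeR adjusted p = 0.00353). Saa1, named after its values were seen, had no read in either untreated library and 336 and 169 reads with both agents, which is at least 102-fold higher in set 1 and at least 70.1-fold higher in set 2 against a floor of 3 reads per library. With Saa1 at its bound the median of the list was again 4.69.

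In prostaglandin and nitric oxide synthesis, 6 of 15 tested members rose and 1 fell (median log2 fold change 1.25). Ptgs2 (ENSMUSG00000032487, chromosome 1, 150100031 to 150108227), the inducible cyclooxygenase, was at 29.3 and 2.49 CPM without the agents and 190 and 78.4 CPM with both. The 2 untreated libraries differed greatly, yet both treated libraries lay above them, and the log2 fold change was 3.71 (SE 0.56, edgeR adjusted p = 0.0329). Ass1, which makes the arginine precursor argininosuccinate, rose from 43.1 and 18.1 CPM to 146 and 71.3 CPM. Nos1, the neuronal nitric oxide synthase, went the other way, from 28.3 and 32.9 CPM to 2.87 and 1.71 CPM (log2 fold change -3.74, SE 0.31, edgeR adjusted p = 0.00806), and it shares exon bases with Gm26995 on the other strand.

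Transcription factors of the AP-1 and C/EBP families and others that answer inflammatory signals were called in 9 of 19 cases, all higher (median log2 fold change 0.82). Over all genes tested 2.21% were called higher. Cebpd rose from 46.2 and 23.8 CPM to 299 and 236 CPM, and Cebpb from 119 and 91.1 CPM to 582 and 609 CPM. Both encode leucine-zipper factors that act on acute-phase genes, and the untreated and treated values of each were well apart. Epas1, which encodes HIF-2α, a factor known for driving cartilage proteases, rose from 9.93 and 17.7 CPM to 132 and 108 CPM (log2 fold change 3.17, SE 0.30, edgeR adjusted p = 0.0111). Cebpb shares exon bases with Tmem189 on the other strand.

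The promoters of the called genes were searched for letters that NF-κB, AP-1 and C/EBP proteins are known to bind. Promoter windows from RefSeq (GRCm38.p6) were matched by symbol to 10839 of the 15095 genes tested, and the 250 bases before the start were read on both strands. The κB consensus of 10 bases was present in 4.52% of all windows, in 13.3% of the 241 windows of higher genes and in 7.45% of the 161 windows of lower genes. The AP-1 letters TGANTCA were present in 4.37% of all windows, 8.71% of those of higher genes and 6.21% of those of lower genes. For the C/EBP letters TTGCNNAA the shares were 7.32%, 16.2% and 8.70%. Among the named genes the κB consensus was no more frequent on the higher side, with 5 of 27 windows of higher genes and 6 of 16 windows of lower genes, and the cartilage matrix list, mostly lower, had 5 of 16. The upstream bases of the 5 higher genes are shown here, as examples of where the letters lie, with matches to any of the 3 motifs in capitals.
Chil1 (chr1:134181906-134182155, plus strand): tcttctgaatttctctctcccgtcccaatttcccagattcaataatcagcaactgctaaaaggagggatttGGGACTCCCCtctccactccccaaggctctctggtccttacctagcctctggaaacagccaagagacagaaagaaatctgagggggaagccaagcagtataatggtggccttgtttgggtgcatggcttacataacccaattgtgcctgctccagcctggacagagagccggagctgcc
Cxcl3 (chr5:90785851-90786100, plus strand): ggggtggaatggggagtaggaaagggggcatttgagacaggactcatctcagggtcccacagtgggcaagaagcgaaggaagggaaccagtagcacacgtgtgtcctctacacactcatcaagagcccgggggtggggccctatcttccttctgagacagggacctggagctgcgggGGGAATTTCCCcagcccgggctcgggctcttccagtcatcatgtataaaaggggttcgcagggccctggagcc
Il6 (chr5:30012864-30013113, plus strand): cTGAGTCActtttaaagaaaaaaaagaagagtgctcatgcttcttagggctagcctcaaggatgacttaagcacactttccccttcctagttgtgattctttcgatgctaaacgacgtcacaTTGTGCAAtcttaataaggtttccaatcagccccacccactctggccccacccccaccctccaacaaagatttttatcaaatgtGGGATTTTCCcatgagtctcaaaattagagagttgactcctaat
Sod2 (chr17:13007589-13007838, plus strand): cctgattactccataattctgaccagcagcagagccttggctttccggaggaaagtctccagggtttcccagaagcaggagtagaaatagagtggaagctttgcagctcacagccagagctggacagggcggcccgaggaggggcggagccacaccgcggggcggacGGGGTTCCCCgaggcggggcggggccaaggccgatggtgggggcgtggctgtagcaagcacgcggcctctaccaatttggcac
Steap4 (chr5:7960222-7960471, plus strand): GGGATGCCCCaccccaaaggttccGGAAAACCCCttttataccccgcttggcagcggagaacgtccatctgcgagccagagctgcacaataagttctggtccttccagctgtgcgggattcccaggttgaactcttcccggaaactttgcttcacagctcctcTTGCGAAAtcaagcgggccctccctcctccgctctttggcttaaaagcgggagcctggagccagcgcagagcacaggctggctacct
The last base of each sequence is the base before the RefSeq start. The match of Chil1, GGGACTCCCC, lies 179 to 170 bases before the start. Cxcl3 holds GGGAATTTCC on the plus strand and, shifted by 1 base on the same site, a match on the other strand. Il6 holds all 3 motifs, TGAGTCA at 249 to 243, TTGTGCAA (read on the other strand) at 128 to 121 and GGGATTTTCC at 44 to 35 bases before the start. In Steap4 both κB matches were found on the other strand, with TTGCGAAA closer to the start. A match is a description of letters, and no binding was measured.

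Matrix-degrading enzymes and their inhibitors were called in 4 of 23 cases, all higher, against 2.21% higher over all genes tested. The median log2 fold change was 0.38. Mmp3 (ENSMUSG00000043613, chromosome 9, 7445822 to 7455972), which encodes stromelysin-1, was at 1.03 and 0.773 CPM in untreated libraries, compared with 7711 and 644 CPM under both agents. The groups were far apart in each set, but the level with both agents in set 1 was many times that in set 2, and the log2 fold change of 11.49 carried an SE of 1.00 (edgeR adjusted p = 0.0089). Mmp13 (ENSMUSG00000050578, chromosome 9, 7272514 to 7283333), the collagenase that cleaves type II collagen, was more even, at 84.2 and 95.1 CPM untreated and 1114 and 825 CPM with both agents (log2 fold change 3.42, SE 0.25, edgeR adjusted p = 0.00643). Mmp12, the macrophage elastase, rose from 12.8 and 4.11 CPM to 57.0 and 37.0 CPM, and it shares exon bases with Mmp1b on the other strand. Mmp10, stromelysin-2, named after its values were seen, was the other gene called, from 0 and 6 reads to 55.5 and 8.00 CPM. It was at least 688-fold higher in set 1 against a floor of 3 reads. That bound does not hold for set 2, where the untreated library held 6 reads and the treated level was lower. The aggrecanases were not called, with Adamts4 at 6.34 and 10.0 CPM against 8.83 and 10.5 CPM and Adamts5 at 62.8 and 48.8 CPM against 87.3 and 59.7 CPM (edgeR adjusted p = 0.68 and 0.265).

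The cartilage matrix genes were mostly lower. Of 23 tested, 12 fell, 1 rose and 10 were not called, and the median log2 fold change was -1.80. Matn3 (ENSMUSG00000020583, chromosome 12, 8947929 to 8972028), which encodes the adaptor protein matrilin-3, fell from 441 and 444 CPM to 17.9 and 27.1 CPM. Its 2 untreated libraries were nearly equal, and the log2 fold change was -4.33 (SE 0.24, edgeR adjusted p = 0.00353). Aggrecan, the product of Acan (ENSMUSG00000030607, chromosome 7, 79053483 to 79115099), is the large proteoglycan that holds water in cartilage. Acan fell from 10310 and 14831 CPM to 1244 and 2711 CPM (log2 fold change -2.75, SE 0.38, edgeR adjusted p = 0.0271). Col27a1, a fibrillar collagen of growing cartilage, fell from 1053 and 1771 CPM to 159 and 290 CPM. Col2a1 (ENSMUSG00000022483, chromosome 15, 97975602 to 98004695), which encodes the type II collagen chain, was at 64188 and 53272 CPM without the agents and 13034 and 17344 CPM with both. The groups of Col2a1 did not overlap, but with a log2 fold change of -1.96 and an SE of 0.53 it was not called (edgeR adjusted p = 0.137). Col2a1 did pass when the 12 GFP-virus libraries shared the spread (SE 0.17, edgeR adjusted p = 3.63e-06), with DESeq2 (adjusted p = 2.07e-12), with voomWithQualityWeights (adjusted p = 0.0237) and with no filter (edgeR adjusted p = 0.00246). The shared spread draws on GFP-virus libraries whose pairs lay closer, such as the LDHA floxed line without IL-1β at 51545 and 53786 CPM. It therefore does not measure the spread of the virus-free libraries. The 1 higher member was Prg4, which encodes lubricin, a lubricant of the joint surface, at 18.4 and 4.32 CPM untreated and 216 and 38.3 CPM with both agents, and it shares exon bases with Tpr on the other strand.

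The lower genes with the smallest p-values included other genes of matrix and growth. Smpd3 (ENSMUSG00000031906, chromosome 8, 106252548 to 106337988), the neutral sphingomyelinase needed for mineralization of cartilage and bone, fell from 203 and 378 CPM to 8.59 and 15.5 CPM. Its log2 fold change was -4.59 (SE 0.18, edgeR adjusted p = 0.00223), and its exons overlap those of Prmt7 on the other strand. Sema3d, a secreted guidance protein, fell from 30.8 and 101 CPM to 2.94 and 11.8 CPM, so its untreated value in set 1 stood between its untreated and treated values in set 2, and the groups did not overlap. Smoc2, a calcium-binding matrix protein, fell from 178 and 728 CPM to 26.7 and 93.8 CPM. Lrrc17, Fam180a and Tnnt3 fell by 3.34, 3.03 and 2.82 on the log2 scale. Tnnt3 encodes the troponin of fast muscle, and of 7 muscle markers it and Myh8 were called lower, with the summed muscle markers at 273 and 89.9 CPM untreated and 146 and 32.7 CPM with both agents. The part of muscle cells in that change was not tested.

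**Figure D3:**
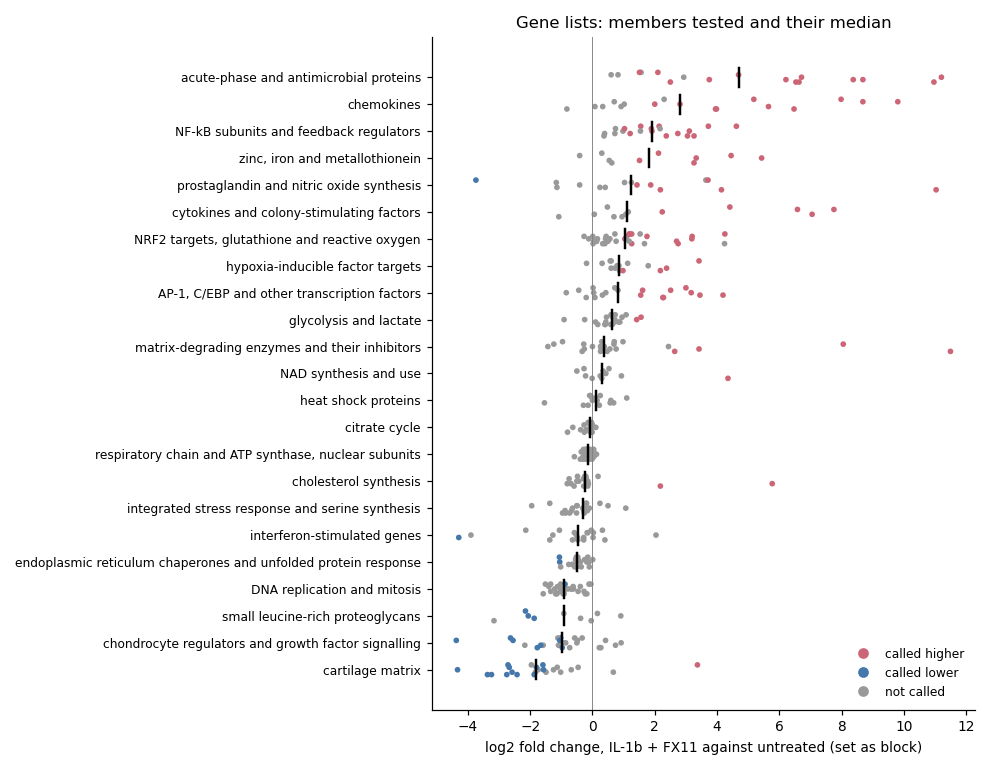
Log2 fold change of IL-1β plus FX11 against untreated for each tested member of the 23 gene lists, called higher (red), called lower (blue) or not called (grey), with the median of each list as a black bar. Medians run from -1.80 for cartilage matrix to 4.69 for acute-phase and antimicrobial proteins, and lists of respiration and heat shock proteins lie close to 0.

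Small leucine-rich proteoglycans, which organise collagen fibrils, were lower in 3 of 9 tested cases and higher in none (median log2 fold change -0.92). Fmod, which encodes fibromodulin, fell from 861 and 1585 CPM to 251 and 276 CPM (log2 fold change -2.15, SE 0.27, edgeR adjusted p = 0.0221). Ogn fell from 224 and 506 CPM to 74.1 and 114 CPM, and Omd from 21.6 and 58.7 CPM to 6.92 and 10.6 CPM. Set 2 had the higher untreated level for all 3 of these genes.

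Chondrocyte regulators and growth factor genes fell in 8 of 25 cases and rose in none (median log2 fold change -0.97). Igf1 (ENSMUSG00000020053, chromosome 10, 87858265 to 87937042), which encodes the growth factor that sustains matrix synthesis, was at 37.4 and 79.8 CPM in untreated libraries, compared with 7.14 and 10.9 CPM under both agents (log2 fold change -2.63, SE 0.20, edgeR adjusted p = 0.00674). Igfbp5, a binding protein for it, fell from 164 and 383 CPM to 34.4 and 53.1 CPM. Chrdl2, a BMP antagonist of developing cartilage, fell from 8.05 and 25.4 CPM to 0.319 and 1.41 CPM. Sox9 (ENSMUSG00000000567, chromosome 11, 112782224 to 112787760), the transcription factor that sets chondrocyte identity, was at 689 and 917 CPM without the agents and 484 and 472 CPM with both and was not called (log2 fold change -0.73, SE 0.22, edgeR adjusted p = 0.17). In bulk RNA, fewer cells of a type and less RNA per cell cannot be told apart. Fibroblast and perichondrium markers had 0 of 10 called higher and 1 called lower (Tnmd, chosen after its values were seen), with a median log2 fold change of -0.97, and osteoblast markers had 2 of 5 called lower. Over all genes tested 1.58% were called lower.

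Glycolysis and lactate genes were higher in 2 of 22 cases, against 2.21% over all genes tested, and lower in none. Of the 22 log2 fold changes 20 were positive, and the median was 0.62. The called genes were the monocarboxylate transporters that carry lactate across the membrane. Slc16a1 rose from 124 and 85.0 CPM to 320 and 238 CPM (log2 fold change 1.42, SE 0.16, edgeR adjusted p = 0.0178), and Slc16a3 from 65.6 and 62.5 CPM to 236 and 152 CPM (log2 fold change 1.56, SE 0.20, edgeR adjusted p = 0.0224). Ldha (ENSMUSG00000063229, chromosome 7, 46841475 to 46855627), whose product FX11 inhibits, was at 690 and 602 CPM in untreated libraries, compared with 1615 and 869 CPM under both agents. The treated values of Ldha lay above the untreated ones in each set but were uneven, and it was not called (log2 fold change 0.88, SE 0.26, edgeR adjusted p = 0.17). Ldha did pass when the 12 GFP-virus libraries shared the spread (log2 fold change 0.92, SE 0.18, edgeR adjusted p = 0.0031) and with DESeq2 (adjusted p = 0.0155), but not with voomWithQualityWeights (adjusted p = 0.118). Pairs of GFP-virus libraries lay closer for Ldha too, such as the LDHA floxed line with IL-1β at 1514 and 1507 CPM. Ldhb was at 24.3 and 71.6 CPM against 17.9 and 27.6 CPM, with overlapping groups. Hk2, the inducible hexokinase, was at 142 and 104 CPM against 136 and 136 CPM, Slc2a1, the glucose transporter GLUT1, at 316 and 215 CPM against 397 and 396 CPM, and Gpi1 at 185 and 194 CPM against 394 and 342 CPM (edgeR adjusted p = 0.758, 0.224 and 0.0589). Slc2a1 and Gpi1 share exon bases with Gm12868 and Gm26762 on the other strand.

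No citrate cycle gene was called (0 of 18 by edgeR, 3 at an unadjusted p under 0.05, 1 lower by DESeq2, 0 by voomWithQualityWeights), and the median log2 fold change was -0.09. No nuclear-encoded subunit of the respiratory chain or ATP synthase was called (0 of 50 by edgeR, 0 at an unadjusted p under 0.05, 0 by DESeq2 and 0 by voomWithQualityWeights), and the median was -0.15. The respiratory chain genes spanned -0.58 to 0.13 on the log2 scale, with 43 of the 50 negative. With 3.78% called over all genes tested, lists of these sizes would hold few calls in any case. Idh2, the mitochondrial NADP-dependent isocitrate dehydrogenase, had the smallest p-value of the citrate cycle, at 74.2 and 90.4 CPM against 38.0 and 58.3 CPM (log2 fold change -0.80, SE 0.16, edgeR adjusted p = 0.0677). In NAD synthesis and use, 1 of 12 was called, against 3.78% over all genes tested. That gene was Bst1, which rose from 0.685 and 0.386 CPM to 27.8 and 2.61 CPM, with exon bases shared with Fbxl5. Nampt, the rate-limiting enzyme of NAD salvage, was at 55.3 and 71.3 CPM without the agents and 70.2 and 90.4 CPM with both (log2 fold change 0.34, SE 0.14, edgeR adjusted p = 0.299), and its groups overlapped because the untreated set 2 value exceeded the treated set 1 value.

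Hypoxia-inducible factor targets rose in 4 of 16 cases, against 2.21% over all genes tested, with none lower and a median log2 fold change of 0.86. Car9, a carbonic anhydrase of the cell surface, rose from 1.97 and 3.65 CPM to 19.3 and 43.0 CPM (log2 fold change 3.42, SE 0.22, edgeR adjusted p = 0.00476), and it shares exon bases with Gm12454. Egln3, an oxygen-sensing prolyl hydroxylase, rose from 5.34 and 5.30 CPM to 34.7 and 21.8 CPM, and Adm, which encodes the peptide adrenomedullin, from 8.56 and 6.50 CPM to 51.2 and 22.1 CPM.

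NRF2 targets and genes that handle glutathione and reactive oxygen rose in 12 of 33 cases, with none lower and a median log2 fold change of 1.04. Sod2 (ENSMUSG00000006818, chromosome 17, 13007839 to 13018119), the mitochondrial superoxide dismutase, whose promoter is among those shown above, was at 76.4 and 82.6 CPM in untreated libraries, compared with 806 and 656 CPM under both agents. Slc7a11, the cystine importer that feeds glutathione synthesis, rose from 22.4 and 16.2 CPM to 129 and 127 CPM. The log2 fold changes of Sod2 and Slc7a11 were 3.19 (SE 0.22) and 2.75 (SE 0.18), with edgeR adjusted p = 0.00543 and 0.00501. Gsr, which reduces oxidised glutathione, rose from 39.0 and 28.3 CPM to 137 and 91.3 CPM.

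Zinc, iron and metallothionein genes were higher in 6 of 10 tested cases and lower in none (median log2 fold change 1.81). Slc11a2, which encodes the divalent metal transporter DMT1, was at 40.0 and 39.4 CPM without the agents and 172 and 173 CPM with both. The 2 sets agreed to within about 1 CPM in each group, and the log2 fold change was 2.12 (SE 0.15, edgeR adjusted p = 0.00597), with exon bases shared with Gm5475. Mt1, a metallothionein that binds zinc, rose from 327 and 225 CPM to 2974 and 2490 CPM. Slc39a8, which encodes the zinc importer ZIP8, rose from 2.05 and 3.51 CPM to 176 and 78.1 CPM (log2 fold change 5.43, SE 0.51, edgeR adjusted p = 0.0103).

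The stress and growth lists held few calls. Over all genes tested 3.78% were called, so lists of 23 or 15 members would hold few in any case. No gene of the integrated stress response and serine synthesis was called (0 of 23 by edgeR, 8 at an unadjusted p under 0.05, 1 higher and 4 lower by DESeq2, 1 higher and 1 lower by voomWithQualityWeights), with a median log2 fold change of -0.31. No heat shock protein was called (0 of 15 by edgeR, 2 at an unadjusted p under 0.05, 1 higher and 1 lower by DESeq2, 0 by voomWithQualityWeights), with a median of 0.11. In the endoplasmic reticulum 2 of 21 fell, against 1.58% over all genes tested (median -0.51). Herpud1 went from 184 and 184 CPM to 90.6 and 85.9 CPM and Edem1 from 111 and 170 CPM to 52.3 and 84.7 CPM. Both act in the disposal of misfolded proteins. The cholesterol list had 2 of 20 higher, against 2.21% over all genes tested (median -0.24). Neither of the 2 makes cholesterol: Ch25h hydroxylates it, going from 0.285 and 0.141 CPM to 9.84 and 15.1 CPM, and Abca1 exports it, going from 14.1 and 51.0 CPM to 109 and 137 CPM. The call of Abca1 was lost under edgeR's filterByExpr (adjusted p = 0.0638), as was that of Mcm6 described next (adjusted p = 0.0593). Ch25h shares exon bases with Gm26902 on the other strand.

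All 31 DNA replication and mitosis genes had a negative log2 fold change, with a median of -0.92. Of the 31, 1 was called, against 3.78% over all genes tested. Mcm6, a subunit of the replicative helicase, was at 74.8 and 38.0 CPM in untreated libraries, compared with 38.8 and 21.8 CPM under both agents (log2 fold change -0.88, SE 0.15, edgeR adjusted p = 0.0489). Its groups overlapped, because both values of set 1 were higher than their counterparts in set 2. Bub1b, a spindle checkpoint kinase, and Kif11, a spindle motor, were at 40.7 and 15.0 CPM and at 29.8 and 10.6 CPM untreated, against 21.1 and 6.97 CPM and 15.0 and 3.17 CPM with both agents. The call of Mcm6 was lost in the fit in which the 12 GFP-virus libraries share the spread when the set 2 library with both agents was left out (edgeR adjusted p = 0.0758) or the untreated set 1 library was left out (edgeR adjusted p = 0.148).

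Interferon-stimulated genes were called in 1 of 21 cases, against 3.78% over all genes tested. The called gene, Oasl2, was at 0.599 and 9.31 CPM without the agents and 0.0491 and 0.385 CPM with both (log2 fold change -4.29, SE 0.54, edgeR adjusted p = 0.0217). The untreated set 2 library was high in Oasl2 and also in Isg15, at 0.599 and 6.60 CPM untreated against 0.245 and 0.984 CPM with both agents. In the fit in which the 12 GFP-virus libraries share the spread, Oasl2 was not called when that library was left out (log2 fold change -1.67, edgeR adjusted p = 0.177) or when the set 1 library with both agents was left out (-3.71, edgeR adjusted p = 0.0531). Gbp2, a GTPase induced by interferon, was at 0.771 and 1.55 CPM against 5.52 and 3.72 CPM and was not called.

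The response to both agents was then set against that of 12 other libraries of the series to IL-1β alone, in order to see which genes answered differently. Those libraries came from chondrocytes of 3 floxed lines (LDHA, NAMPT or NFKBIZ), labelled C57BL/6 as well, that received an adenovirus expressing GFP and no Cre, with (6) or without (6) 10 ng/mL IL-1β for 24 h. No library is shared between the 2 responses. FX11, the virus and the floxed alleles differ together between them and cannot be told apart. In the 12 libraries alone 8529 of 15994 genes were called for IL-1β (53.3%), 4095 higher and 4434 lower. Nothing in the labels says the 2 libraries of a line and treatment came from separate cultures, so p-values measure the spread between libraries only. Normalized over the 16 libraries, Mmp3 with IL-1β was at 848 and 842 CPM for LDHA flox and 862 and 838 CPM for NAMPT flox. The 2 NFKBIZ flox libraries, both of set 2, were at 1760 and 1739 CPM. Virus-free cultures with both agents were at 7792 and 649 CPM. Of the 329 genes higher with both agents that were tested in both, 320 (97.3%) were higher with IL-1β in GFP-virus cultures, where 25.3% of the genes tested in both were called higher, and these made up 8.63% of the 3708 higher there. Of the 236 lower genes, 207 (87.7%) were lower there as well, against 29.6% of genes called lower, 8 were called in the opposite direction and 21 were not called.

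The difference between the 2 responses was tested in a fit of all 16 libraries, and 311 of 16419 genes were called (1.89%), 116 with a higher response in virus-free cultures (0.706%) and 195 with a lower one (1.19%). The spread in this fit also draws on the GFP-virus libraries, so it is not that of the virus-free libraries alone. For Slc7a2 the SE of the virus-free response was 0.22 in the 4 libraries and 0.09 in this fit. For Mmp13 it was larger here (0.25 and 0.34). With a block for each line and set 1336 genes were called, and with limma's voomWithQualityWeights, which the study's methods name, 7 genes were called. Leaving out 1 library at a time gave counts from 174 to 1725. The count was 1725 without the set 1 library with both agents, 719 without the untreated set 1 library and 993 without the untreated set 2 library. Among the GFP-virus libraries it was 200 and 178 without the set 1 and the set 2 LDHA flox library with IL-1β, 202 without the set 2 LDHA flox library without IL-1β, 184 without the set 2 NAMPT flox library with IL-1β and 174 without the set 1 NAMPT flox library without IL-1β. Against NFKBIZ flox alone 226 genes were called, 33 higher and 193 lower (14.6% higher against 37.3%), and 86 of the 311 were among them. The 10 genes named next were called in each of the 16 fits without 1 library. With voomWithQualityWeights 6 of the 10 were not called, namely Cdc42bpg, Zmat3, Syne2 and Mcc (adjusted p = 0.134 each), Nr4a1 (0.131) and Gucy1a1 (0.752), and Gucy1a1 was not called against NFKBIZ flox alone either (edgeR adjusted p = 0.0522).

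Slc7a2 (ENSMUSG00000031596, chromosome 8, 40862396 to 40922308), which imports arginine, had the smallest p-value of the difference. Normalized over the 16 libraries, it was at 453 and 485 CPM in untreated wild-type libraries and at 1455 and 1369 CPM with both agents. In the GFP-virus cultures it ranged from 322 to 626 CPM (median 346) without and from 407 to 858 CPM (median 437) with IL-1β. Both virus-free libraries with both agents lay above the other 14 of these 16 libraries, and the log2 difference of the responses was 1.22 (SE 0.10, edgeR adjusted p = 0.000317), with exon bases shared with Gm26584. Ephx1, which encodes microsomal epoxide hydrolase, went from 103 and 104 CPM to 228 and 167 CPM in virus-free cultures, whereas its median in GFP-virus cultures was 188 CPM without and 137 CPM with IL-1β. The untreated levels of Ephx1 differed too, since all 6 GFP-virus libraries without IL-1β were at 157 CPM or more.

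Dhrs9, a short-chain dehydrogenase that acts on retinol and steroids, was at 27.2 and 23.0 CPM in untreated libraries, compared with 24.0 and 31.0 CPM under both agents. In GFP-virus cultures it ranged from 34.7 to 64.1 CPM without IL-1β and from 14.5 to 21.5 CPM with it, groups that do not overlap. Its log2 difference was 1.68 (SE 0.17, edgeR adjusted p = 0.000711). Zmat3, which encodes an RNA-binding protein known as a p53 target, went from 92.0 and 96.6 CPM to 187 and 187 CPM, while the GFP-virus medians were 125 and 134 CPM. Cdc42bpg, a kinase that binds CDC42, had a log2 difference of 0.95 (SE 0.11).

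**Figure D4:**
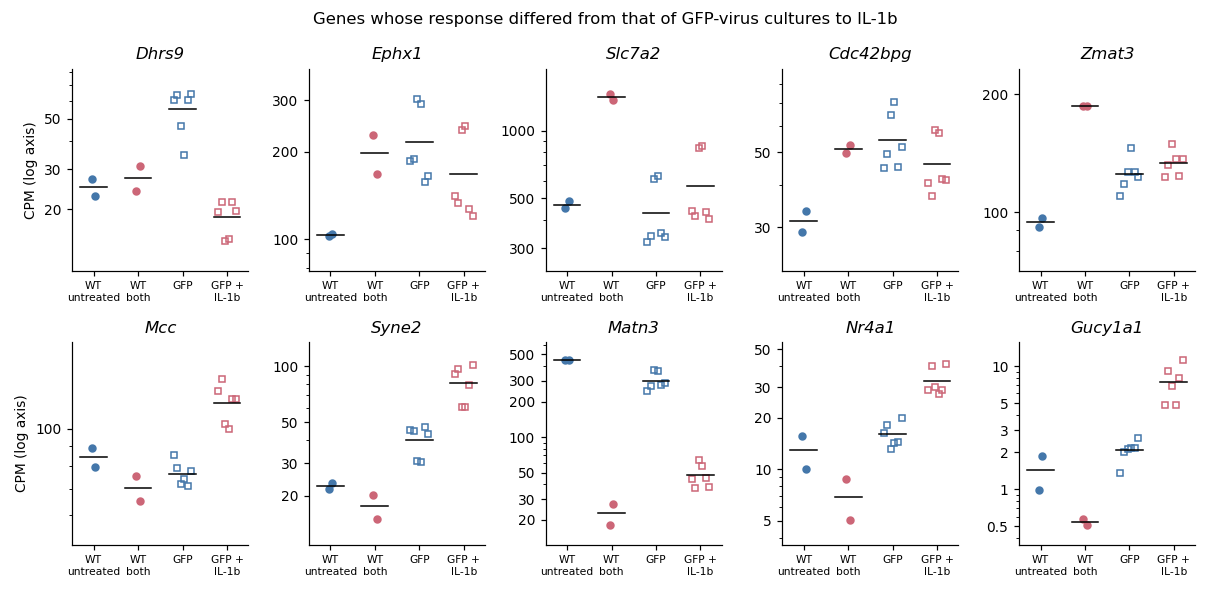
Normalized CPM on a log axis of the 10 genes named for the difference between the 2 responses, in virus-free wild-type libraries (filled circles, 2 each) and GFP-virus libraries (open squares, 6 each), untreated (blue) and with both agents or IL-1β (red), with bars at the group means. Slc7a2 and Zmat3 rise with both agents and little with IL-1β in GFP-virus cultures, and Syne2, Mcc, Nr4a1 and Gucy1a1 lie higher with IL-1β in GFP-virus cultures and lower or about level with both agents.

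In the other direction Matn3 led, since its fall with both agents exceeded that with IL-1β in GFP-virus cultures. On the scale of the 16 libraries it fell from 446 and 448 CPM to 18.1 and 27.4 CPM in virus-free cultures, and its range in GFP-virus cultures was 245 to 366 CPM without and 37.3 to 63.7 CPM with IL-1β. The log2 fold changes were -4.32 (SE 0.16) and -2.67 (SE 0.09), and their difference was -1.65 (SE 0.16, edgeR adjusted p = 0.000606). Nr4a1, an immediate-early nuclear receptor, was at 15.7 and 10.1 CPM without the agents and 8.83 and 5.05 CPM with both, but rose from a median of 15.3 to 29.5 CPM with IL-1β in GFP-virus cultures. Gucy1a1, a subunit of the soluble guanylate cyclase that senses nitric oxide, was low in virus-free libraries, at 0.983 and 1.88 CPM untreated and 0.570 and 0.518 CPM with both agents. In GFP-virus cultures Gucy1a1 ranged from 1.35 to 2.62 CPM without and from 4.81 to 11.1 CPM with IL-1β, and its log2 difference was -3.10 (SE 0.37, edgeR adjusted p = 0.00137). Syne2, a nuclear envelope protein, and Mcc, a cell adhesion and signalling protein, had log2 differences of -1.38 (SE 0.15) and -0.87 (SE 0.10), and Mcc shares exon bases with A930012L18Rik.

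For these 10 genes the virus-free set 1 library given IL-1β alone, which entered neither fit, can be set beside the others of set 1, as single values with no test, normalized over the 8 wild-type libraries. Slc7a2 was at 446 CPM untreated, 1337 CPM with IL-1β alone and 1439 CPM with both agents, so in set 1 IL-1β alone was close to both agents. In set 2, whichever label holds, it was not. The libraries labelled FX11 and IL-1β were at 831 and 683 CPM there, against 478 CPM untreated and 1338 CPM with both agents. Syne2 (21.4, 21.0 and 20.0 CPM), Mcc (87.8, 70.7 and 74.4 CPM) and Gucy1a1 (0.968, 0.776 and 0.564 CPM), in the same order, were not higher with IL-1β alone than untreated. In Nr4a1 the set 1 library with IL-1β alone stood apart, at 15.5, 30.5 and 8.73 CPM. In set 2 the libraries labelled FX11 and IL-1β were at 7.06 and 7.49 CPM, under the 9.99 CPM untreated. Back in set 1, the remaining genes were as follows. Matn3 was at 440, 34.3 and 17.9 CPM and Dhrs9 at 26.8, 16.2 and 23.8 CPM. Ephx1 (102, 137 and 225 CPM), Zmat3 (90.6, 136 and 185 CPM) and Cdc42bpg (28.7, 33.6 and 49.3 CPM) had values with IL-1β alone between the other two.

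Genes of the first comparison could also be read in this fit. Chil1 rose further in virus-free cultures, to 6357 and 6319 CPM against 964 to 6043 CPM (median 1640) with IL-1β in GFP-virus cultures, with a log2 difference of 1.84 (SE 0.26, edgeR adjusted p = 0.00406). The lines differed, since NFKBIZ flox reached 5886 and 6043 CPM and the LDHA and NAMPT flox libraries 964 to 1652 CPM. Without IL-1β NFKBIZ flox was at 42.4 and 41.6 CPM and the other lines at 3.45 to 6.31 CPM, against 8.21 and 8.55 CPM in untreated virus-free libraries. Ccl2 rose less, by 3.93 against 6.54 on the log2 scale, from untreated levels of 38.8 and 12.2 CPM that exceeded the 1.43 to 4.94 CPM of GFP-virus cultures (difference -2.61, SE 0.61, edgeR adjusted p = 0.0477). Igf1 fell by 2.69 against 0.79 on the log2 scale (difference -1.90, SE 0.34, edgeR adjusted p = 0.0153), again from a higher untreated level, 37.8 and 80.6 CPM against 4.89 to 19.5 CPM. For Mmp3, Mmp13, Il6, Nfkbiz, Nos2, Ldha and Acan the difference was not called, with edgeR adjusted p between 0.284 and 0.958.

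Among the lists, heat shock proteins stood lower in the difference in 6 of 15 cases and higher in none, against 1.19% lower over all genes. In the 12 GFP-virus libraries 14 of the 15 were called higher with IL-1β and 1 lower (median log2 fold change 0.84), while with both agents in virus-free cultures the median was 0.11. The 6 were Hspa1b, Hspb1, Dnaja1, Dnajb1, Hspa8 and Hsph1, named after their values were seen apart from Hspa1b, and they encode chaperones of the cytosol. Hspa8, the constitutive HSP70 chaperone, was at 768 and 1083 CPM in untreated libraries, compared with 651 and 1127 CPM under both agents, with no shift in 1 direction. Hspa1b, an inducible HSP70, was at 6.71 and 6.32 CPM against 10.5 and 9.20 CPM, a log2 fold change of 0.59 against 2.35 with IL-1β in the 12 GFP-virus libraries (difference -1.75, edgeR adjusted p = 0.027). The starting levels of Hspa1b were far apart, since on the scale of the 16 libraries it was at 6.79 and 6.39 CPM in untreated virus-free libraries and at 63.8 to 223 CPM in GFP-virus libraries without IL-1β. None of the 15 was lower in the difference against NFKBIZ flox alone or with voomWithQualityWeights, 5 were lower against LDHA flox and NAMPT flox alone, and leaving out either the set 2 NAMPT flox library with IL-1β or the set 1 NAMPT flox library without it gave 3.

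**Figure D5:**
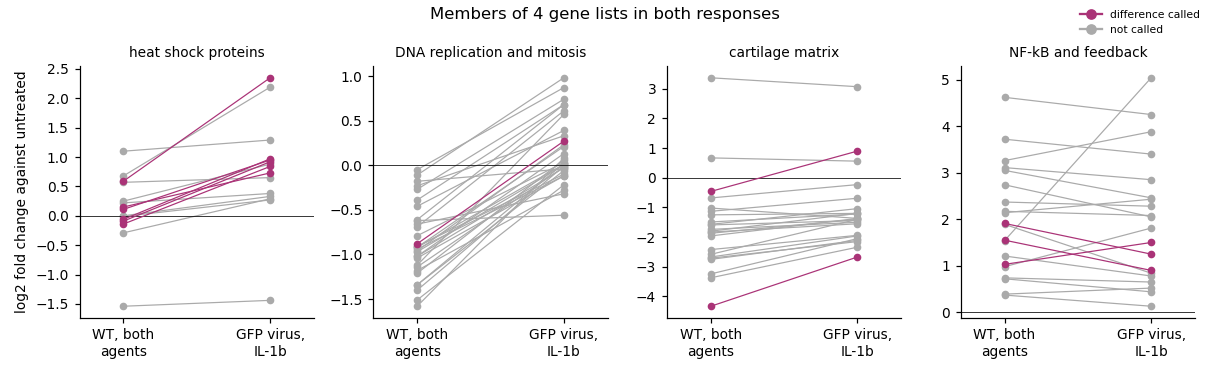
Log2 fold change of each tested member of 4 lists with IL-1β plus FX11 in virus-free wild-type libraries (left end of each line) and with IL-1β in GFP-virus libraries (right end), with purple lines for members whose difference was called. Most heat shock and replication genes lie higher at the right end, whereas cartilage matrix and NF-κB genes lie on the same side of 0 in both, apart from Cilp2, named after its values were seen.

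DNA replication and mitosis genes had a median log2 difference of -0.92, against 0.02 over all genes, with 1 of 31 called lower, Mcm6. This count moved with the libraries used, to 28 of 31 without the set 1 library with both agents, to 8 without the untreated set 2 library, to 26 with set 2 alone and to 26 with a block for each line and set. It was 0 without the set 2 library with both agents and without the untreated set 1 library, and of the GFP-virus libraries 0 without the set 2 LDHA flox library with IL-1β and without the set 1 NAMPT flox library without IL-1β. Zinc, iron and metallothionein genes had 3 of 10 higher in the difference, against 0.706% higher over all genes. Among them was Mt1 (log2 difference 1.23, SE 0.24, edgeR adjusted p = 0.0227), which rose by 3.30 against 2.07 on the log2 scale. With voomWithQualityWeights only 3 genes in all were called higher, Slc7a2, Ephx1 and Dhrs9, so none of this list. For glycolysis and lactate, the citrate cycle, the respiratory chain, hypoxia-inducible factor targets and NRF2 targets, no member was lower in the difference (edgeR), and the medians of the log2 difference lay between 0.01 and 0.13.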

How the data were processed

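RNA was sequenced from wild-type chondrocytes and from chondrocytes of the floxed lines, and the deposited tables hold whole-number read counts per gene for each library, made by the authors. The labels' processing notes name STAR 2.0.4b, featureCounts 1.45 and GRCm38; the versions in the study's methods differ from these, and the strand setting of the counting is not given in the sources used here, so exon bases shared by genes on opposite strands cannot be assigned. The files list 41388 genes, of which 40340 were named from the annotation and 1048 kept their IDs.

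From the counts, 355 ribosomal RNA genes were left out, genes above 1 CPM in at least 1 library were kept, and edgeR 4.0.16 (R 4.3.3) fitted a quasi-likelihood model with TMM factors, two-sided, over all genes kept. The terms were treatment and library set for the 4 libraries, and treatment, line and library set for the 16 libraries. Benjamini-Hochberg adjusted p-values of 0.05 or less were called, and SE is the log2 fold change divided by the root of F. A floor of 3 counts is 0.0767 to 0.128 CPM in the 4 libraries. The 12 GFP-virus libraries held 15830658 to 39959888 counts. Intervals for ratios with 1 to 3 counts are 95% exact binomial ones; these and the floors cover counting error only. Alternatives used DESeq2 1.42.0, limma 3.58.1 and other filters, scalings and samples. The scripts were tested on simulated data; with 1 residual degree of freedom the first comparison made more false calls there than its nominal rate.

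The sets come from the style of the titles. Untreated and treated libraries of a set deviated together (correlation of the set differences 0.624 over 9147 genes), a hint from the data that sets pair the libraries. Members and gene lists were chosen with earlier results of these data known. Named were the 8 higher and 8 lower genes with the smallest adjusted p among those with a symbol, a log2 fold change of at least 1 in size and the same sign in both sets; the 5 genes in each direction with the smallest adjusted p for the difference; the 3 members of each list with the smallest p; and Mmp3, Mmp13, Il6, Nfkbiz, Ldha, Ldhb, Hk2, Slc2a1, Nampt, Acan, Col2a1, Sox9, Nos2, Ptgs2, Adamts4 and Adamts5. Il36g and Gbp5, listed as a cytokine and an interferon-stimulated gene, were not found by symbol.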

Additional observations from a re-analysis of the deposited data

Results flagged for a closer look

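The response was called different between virus-free cultures given both agents and GFP-virus cultures given IL-1β for 311 genes (edgeR, 16 libraries). The named genes among them had log2 differences of 1.22 for Slc7a2, 1.29 for Ephx1, 1.68 for Dhrs9, 0.95 for Cdc42bpg, 0.89 for Zmat3, -1.65 for Matn3, -1.38 for Syne2, -0.87 for Mcc, -1.91 for Nr4a1 and -3.10 for Gucy1a1, each drawn out because the test of the difference itself passed the threshold. With voomWithQualityWeights, which the study's methods name, 7 genes were called, and 6 of these named genes were not. FX11, the virus and the floxed alleles cannot be told apart in these differences.

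In data outside the comparisons, Mmp3 stood at 1959 CPM in the set 2 library labelled FX11, above 0.769 CPM in the untreated library of that set and 0.749 CPM in the set 2 library labelled IL-1β. In set 1 the library labelled FX11 was at 1.15 CPM and that labelled IL-1β at 8842 CPM. Neither of these libraries entered the comparisons, and the reason for the set 2 values was not tested.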

How the results depend on the processing

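The response to both agents (571 genes) gave 1 gene with no replicate block, 1127 with DESeq2 (542 higher and 585 lower, 48.1% higher against 58.3%; 566 of the 571 shared), 1186 with no filter, 0 when all 8 wild-type libraries shared the spread and 2344 when the 12 GFP-virus libraries did. Without 1 library and without the block the count was 0 in each case (893 to 1243 at an unadjusted p under 0.05); with the spread of the 12 GFP-virus libraries, added after seeing the data, it was 2451 to 2589 (2564 without the untreated set 1 library, 2459 without the untreated set 2 library). RLE factors (593), voomWithQualityWeights (709), filterByExpr (472) and leaving out Gm26917 and ribosomal protein genes (566) stayed within 1.5 times. Of the named genes, 20 gained a call when the 12 GFP-virus libraries shared the spread and 17 with DESeq2, Col2a1, Sox9 and Ldha in both. Under filterByExpr the calls of Abca1 (edgeR adjusted p = 0.0638) and Mcm6 (0.0593) were lost.

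The difference (311 genes) gave 1336 with the replicate block of line and library set, 195 with line alone, 870 with DESeq2, 7 with voomWithQualityWeights, 614 with no filter, 151 against LDHA flox and NAMPT flox alone, 226 against NFKBIZ flox alone (33 higher and 193 lower) and 1858 in set 2 alone. Leaving out 1 library gave 174 to 1725. RLE factors gave 316 (97 higher and 219 lower). With voomWithQualityWeights 6 of the 10 named genes missed the threshold, and Gucy1a1 missed it against NFKBIZ flox alone (edgeR adjusted p = 0.0522). The cause of these shifts was not tested.

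Signs turned for 3 genes that were not called, whose log2 fold changes without 1 library ranged from -1.63 to 0.26 (Cox6a2), -0.06 to 0.38 (Hk2) and -0.07 to 0.61 (Adamts4): Cox6a2 to 0.22 without the set 1 library with both agents (0.10 with the shared spread) and 0.26 without the untreated set 2 library, Hk2 to -0.06 without the untreated set 2 library (-0.13 with the shared spread) and Adamts4 to -0.07 without the untreated set 1 library. Genes not above 1 CPM in at least 1 library were not tested, and values under about 0.128 CPM rest on very few reads.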
